A study of Mus musculus with 8 samples.

Results

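The replication-dependent histone genes encode the H1, H2A, H2B, H3 and H4 proteins that package newly copied DNA. They were taken as the rows of the deposited count table whose Ensembl ID maps in GENCODE M21 to a protein-coding gene with a symbol starting Hist1h, Hist2h, Hist3h or Hist4h, and whose counts summed to 20 or more over the 8 libraries. Such a symbol was carried by 65 of the 50686 genes, and 45 of them reached 20 counts. Hist1h3d, with 20 counts, was the member nearest the threshold, and Hist1h4n, with 18, was the nearest gene left out. There were 7 histone genes with no count in any library. The libraries were bulk RNA sequencing of thymic group 2 innate lymphoid cells (ILC2), lymphocytes known for their type 2 cytokines, and the C57BL/6 mice carried the plck-Id1 transgene. Id1 is an inhibitor of the E protein transcription factors, plck is the proximal promoter of Lck, which is active in developing thymocytes, and all 4 groups carried this transgene. The cells bore the MIGR1 retrovirus carrying either GFP or both GFP and E47-ER, the E protein E47 fused to the estrogen receptor so that tamoxifen releases its activity, and had been in 4-hydroxy-Tamoxifen, an active form of that drug, over 4 h or 16 h before harvest. The groups were GFP at 4 h, E47-ER at 4 h, GFP at 16 h and E47-ER at 16 h, with 2 libraries each. The comparisons asked which genes differed when E47 activity was released, and every group had received the drug: no E47-ER library without it was included. Whether the 2 replicates of a group were separate mice or cultures is not in the labels, so each p-value reflects library-to-library spread alone, possibly of technical origin.

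Replication-dependent histone genes lie in clusters, have no introns in their main transcripts, and are transcribed mainly in S phase under the coactivator NPAT. Their mRNAs normally end not in a poly(A) tail but just after a short stem-loop that is bound by the stem-loop binding protein, SLBP, and they are degraded when DNA synthesis stops. Some of these genes also give longer polyadenylated mRNAs in differentiating or resting cells, so RNA selection bears on which of them a library holds. The labels name total RNA, the selection step is not given in the sources used here, and its part in the levels below was not tested. In bulk RNA, fewer cells in S phase and less histone mRNA per cell cannot be told apart.

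The 3' stem-loop is the element that sets these mRNAs apart, so it is shown first. A perfect stem of 6 base pairs starting with GG and closing a loop of 4 bases, 16 bases in all, was searched. The loops accepted were TT followed by any base and C, and also TTTA and TTCA. The search was made on the transcript strand after the stop codon of the coding transcripts of the histone genes (GENCODE M21, GRCm38). The exact forms found were then sought anywhere in all coding transcripts. They were present in 39 of the 65 histone genes and in 4 of 21836 other coding genes, or 0.0183%. As the forms were taken from the histone genes, stem-loops of other letters in other genes were not counted. Of the 45 members 30 had the stem-loop, in each case 24 to 54 bases after the stop codon. Sites from members of each family, with the stem-loop in capitals and flanking bases in lower case, read as follows, 5′ to 3′.
Hist1h1c: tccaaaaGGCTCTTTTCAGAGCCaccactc
Hist1h2ao: aaaaaaaGGCTCTTTTCAGAGCCatccaca
Hist1h2ap: aaaaaaaGGCTCTTTTCAGAGCCatc
Hist1h2bj: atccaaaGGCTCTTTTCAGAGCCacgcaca
Hist1h3c: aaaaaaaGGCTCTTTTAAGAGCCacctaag
Hist1h4d: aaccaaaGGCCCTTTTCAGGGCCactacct
Hist1h4b: tacaaaaGGTCCTTTTCAGGACCactcact

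The H4 genes differed from the other families in the letters of the stem. Members of the other families shared the same stem, and their forms differed only in the last base of the loop. The form of Hist1h1c and Hist1h2ao was held by 17 members of the H1, H2A, H2B and H3 families and by no H4 gene. The form of Hist1h3c was held by 5 members, 2 of them H2B and 3 H3 genes. The H4 genes had forms of their own: 6 shared that of Hist1h4d, and Hist1h4b and Hist1h4j shared the remaining one. The 15 members with no match included the H2B genes Hist1h2bc and Hist2h2be and the H4 gene Hist1h4i, which were among the more abundant ones. For 8 of the 15, the annotated coding transcript held fewer than 60 bases after the stop codon, so the window was short. The annotation also differed in what followed the stem-loop. In 17 of the 30 members the longest transcript with the stem-loop ran on for 100 bases or more, 840 in Hist1h1c and 1643 in Hist3h2a, while in 12 it ended in under 60, 31 in Hist1h2ao and 3 in Hist1h2ap.

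Promoters were read from RefSeq (GRCm38.p6), 250 bases before to 50 after each start, for the 40 members that matched by symbol and position, which had 41 promoters. Hist1h2bc, Hist1h3a, Hist1h3f, Hist2h2be and Hist2h4 had no entry. The motifs searched on both strands were the octamer ATTTGCAT, the TATA box as TATAAA, the CCAAT box, and the E-box CANNTG, the kind of site that E proteins bind, in its form CAGCTG as well as its form CACCTG. Stretches just upstream of the starts of 4 members are printed 5′ to 3′ on the gene's strand, with matches in capitals. Those of Hist1h1c and Hist1h2ao are shown because these genes gave most of the counts, that of Hist1h4i because it is the most abundant H4 gene, and that of Hist1h2ac because it holds the octamer, the TATA box, the CCAAT box and an E-box together and lies between Hist1h2ac and the divergent Hist1h2bc. They are at chr13:23738657-23738806 (plus strand), chr13:21810217-21810366 (plus), chr13:23683960-23684159 (minus) and chr13:22041363-22041512 (minus), in the order of the lines, and overlap no annotated gene of the table.
Hist1h1c: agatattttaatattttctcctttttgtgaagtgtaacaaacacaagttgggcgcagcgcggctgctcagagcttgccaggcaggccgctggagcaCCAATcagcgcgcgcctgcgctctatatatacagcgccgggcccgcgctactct
Hist1h2ao: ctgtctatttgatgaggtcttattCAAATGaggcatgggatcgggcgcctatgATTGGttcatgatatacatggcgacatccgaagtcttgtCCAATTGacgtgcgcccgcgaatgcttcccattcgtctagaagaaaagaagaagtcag
Hist1h2ac: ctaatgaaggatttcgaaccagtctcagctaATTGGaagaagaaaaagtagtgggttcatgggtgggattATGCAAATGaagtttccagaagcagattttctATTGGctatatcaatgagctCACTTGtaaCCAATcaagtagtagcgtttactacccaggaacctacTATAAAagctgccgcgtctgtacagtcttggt
Hist1h4i: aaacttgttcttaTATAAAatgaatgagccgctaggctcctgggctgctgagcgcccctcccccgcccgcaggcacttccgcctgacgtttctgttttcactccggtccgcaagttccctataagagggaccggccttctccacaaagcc

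The Hist1h2ac stretch held the octamer on the opposite strand, overlapping an E-box, 130 bases before the start, and TATAAA 32 bases before it. The TATAAA of the Hist1h4i stretch lay farther off, 137 bases before the start, and whether it acts as a TATA box was not tested. In the Hist1h2ao stretch a CCAAT overlapped an E-box, and 1 CCAAT stood in that of Hist1h1c. Over the full promoters, the octamer was found in 22.0% of those of the members against 1.74% of 32851 promoters of the same length, and it was found in 5 of 10 H2A and 4 of 9 H2B promoters and in no promoter of the other families. TATAAA was in 53.7% against 13.6%. CCAAT was in 80.5% against 37.4%: in every H1, H2A, H2B and H3 promoter read, and in 2 of 10 H4 promoters. The E-box was about as frequent in the members as elsewhere, 68.3% against 72.3%, with CAGCTG in 12.2% against 16.3% and CACCTG in 7.32% against 20.2%. These are matches of letters, and no binding was measured here. The promoters are not all separate stretches. Divergent H2A and H2B genes such as Hist1h2ae and Hist1h2bg share most of their windows, and Hist1h2be was read at more than 1 start.

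Histone mRNAs were a small part of every library. The 45 members took 23703 counts, 0.0201% of all counts, and between 0.0156 and 0.0305% in single libraries. Hist1h1c, the linker histone H1.2, had 8981 of these counts, Hist1h2ao 6200 and Hist1h2ap 2513, both core histone H2A genes, and together the 3 took 74.6%. Only 16 members had 100 counts or more and 29 had fewer, so most members were measured with little depth. By family, H1 genes had 39.5% of the histone counts, H2A 40.3%, H2B 11.3%, H3 2.53% and H4 6.37%. The Hist1 cluster on chromosome 13 held 38 members and 95.2% of the counts, with 4 members in Hist2 on chromosome 3, 2 in Hist3 on chromosome 11 and 1 in Hist4 on chromosome 6. As CPM, counts scaled to library size, per kilobase of the longest transcript, the mean over 8 libraries was highest for Hist1h2ao at 113 ± 32.4 (SD, n = 8), followed by Hist1h1c at 49.9 ± 17.6 and Hist1h2ap at 46.2 ± 13.6. Hist1h4i, which encodes H4, stood at 11.2 ± 5.65, and the H2B gene Hist1h2bc at 10.6 ± 8.20. Hist1h2bj, another H2B gene, stood at 5.35 ± 2.59, and the H3 gene highest in this measure, Hist1h3c, at 2.68 ± 1.19. The spread of Hist1h1c and Hist1h2ap overlapped, as did that of Hist1h4i and Hist1h2bc, but it includes differences between the groups. Per kilobase, Hist1h1c was above Hist1h2ap in every GFP library and below it in every E47-ER library. Hist1h4i was above Hist1h2bc in every E47-ER library and in only some GFP libraries. The order within these pairs thus differed between libraries, and it was not tested.

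**Figure D1:**
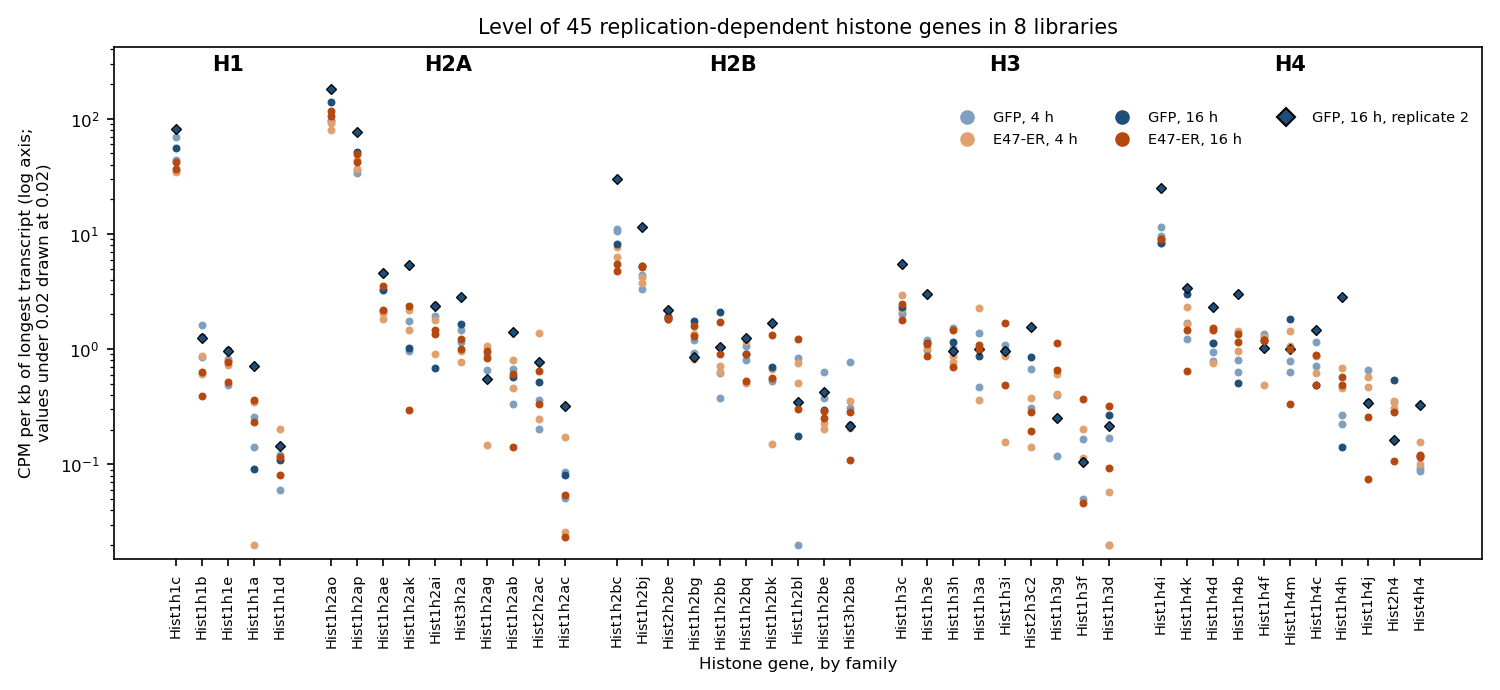
Level of each of the 45 histone genes as CPM per kilobase of longest transcript (log axis), grouped by family and ordered by mean; each point is 1 library, coloured by group, and the diamond is replicate 2 of GFP at 16 h. Hist1h2ao, Hist1h1c and Hist1h2ap stand above the rest, and the diamond is the topmost point for many genes.

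The remaining members named by family were low. In the H1 family, Hist1h1b followed Hist1h1c at 0.937 and Hist1h1e at 0.758 CPM per kilobase. In H2A the third gene was Hist1h2ae at 2.85, and in H2B it was Hist2h2be at 1.90. Hist1h3e reached 1.31 and Hist1h3h, which did not pass the count filter, 1.06 in H3, and Hist1h4k 1.93 and Hist1h4d 1.26 in H4. Set beside the replication-independent variants, which are made throughout the cell cycle from polyadenylated mRNAs, the summed H3 members ran from 5.86 to 13.6 CPM per kilobase over the 8 libraries, with a median of 7.99. H3f3b alone, which encodes the variant H3.3, ran from 198 to 338, and H3f3a, the other H3.3 gene, from 37.5 to 46.2. The summed H2A members, at 125 to 274, lay nearer to H2afz, which encodes H2A.Z, at 83.3 to 151, and the summed H1 members, at 36.0 to 84.8, overlapped H1f0, the linker histone H1.0, at 45.9 to 79.7. Rrm2, a ribonucleotide reductase subunit of S phase, stood at 115 to 167, Pcna, the sliding clamp of DNA replication, at 141 to 191, and Slbp at 36.0 to 54.8. H1fx, a further linker histone variant, was lower than all of these, at 1.32 to 4.05. The H3 members as a family were lower per kilobase in every library than H3f3b, H3f3a, H2afz, H1f0, Rrm2, Pcna and Slbp, and higher than H1fx.

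Copies of a histone gene can be so alike that reads cannot be placed, and how the authors treated such reads is not given in the sources used here. Each transcript was therefore divided into windows of 50 bases. A window was called unique when no transcript of another gene held it, leaving aside genes that overlap the histone gene in position. Windows shared with an overlapping gene thus count as unique, which bears on Hist1h1e, Hist1h2be and Hist3h2a, each with over 90%. Hist2h2be had 100% unique windows, Hist1h1c 91.5%, Hist1h4i 71.1% and Hist1h2bc 69.4%. Hist1h2ao had only 6.50%, 28 of 431, because 403 of its windows were also in Hist1h2ap, which had 6.93%. Of the 45 members, 18 had fewer than 50% unique windows, 7 fewer than 15%, and 10 had 90% or more. Hist1h2ao, Hist1h2bq and Hist1h4m on one side and Hist1h2ap, Hist1h2br and Hist1h4n on the other are paired copies in a stretch of chromosome 13 from 21806612 to 21837530 (GRCm38), in opposite orientation. Their counts were 6200 against 2513 for the H2A pair, 208 against 2 for the H2B pair and 48 against 18 for the H4 pair. The values of these genes are therefore uncertain one by one, and the levels per kilobase above carry the same limit. The sum of Hist1h2ao and Hist1h2ap is given beside the values of each. If reads matching both genes were discarded rather than divided, this sum too rests on few unique windows. Hist1h2ao took 67.5 to 73.7% of that sum in every library.

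**Figure D2:**
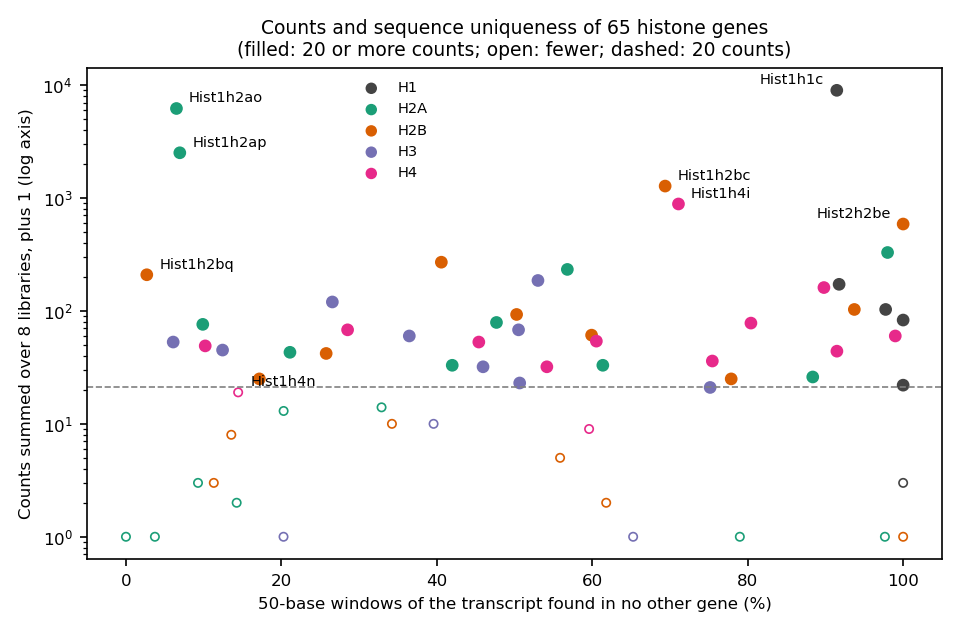
Percent of 50-base windows found in no other gene, leaving aside genes that overlap in position, against counts summed over the 8 libraries plus 1 (log axis), for 65 histone genes coloured by family. Filled points reached 20 counts and open points did not. Hist1h2ao and Hist1h2ap combine 6200 and 2513 counts with under 7% unique windows, whereas Hist1h1c has 8981 counts and 91.5%.

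Some members also share positions with other genes, and the strand setting of the counting is not given in the sources used here. Hist1h1e and Hist1h2be overlap on the same strand, as do Hist3h2a and Trim17. Hist1h2ac overlaps Gm24991 on its own strand. On the other strand 11 of the 45 members overlap an annotated gene, among them all 10 H2A members, with Gm19658 opposite Hist1h2ao and Gm44466 opposite Hist1h2ap, and the remaining one is Hist1h4b. Levels of these genes are uncertain for this reason.

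One library stood apart, and it bears on every result at 16 h. Library totals were 13761761 to 18677675 counts in 7 libraries and 8813782 in replicate 2 of GFP at 16 h, whose trimmed-mean scaling factor was 0.854 against 1.01 to 1.03 elsewhere. In the 2 GFP libraries at 16 h, the log2 CPM of replicate 2 minus that of replicate 1 had a median of 0.80 over other tested genes with transcripts of up to 500 bases, 0.79 from 500 to 1000, 0.40 from 1000 to 2000, -0.023 from 2000 to 4000 and -0.28 above. The tested histone genes had a median of 0.54, with 0.57 for the 15 of up to 1000 bases and 0.50 for the 10 longer ones. Replicate 2 was the highest of the 8 libraries for 17 of the 25 tested histone genes, or 68.0%, for 65.7% of all tested genes of up to 1000 bases and for 34.9% of all tested genes. Its high histone values came with high values of other short transcripts. The 10 longer histone genes had from 1020 to 7425 bases. Their median of 0.50 was above that of all other tested genes over 1000 bases, -0.052. It was nearer to the 0.40 of other genes from 1000 to 2000 bases, so the wider group is not matched to them in length. Hist1h2bc, with 1156 bases, was at 1.85. The sums of marker genes showed ILC2 throughout: all 11 ILC2 markers exceeded 1 CPM and summed to 19070 to 30270 CPM, whereas T cell markers summed to 168 to 379, myeloid markers to 14.0 to 28.5, B cell markers to 6.45 to 14.3, thymic epithelial and stromal markers to 5.56 to 22.8, with Foxn1 at 0, and erythroid markers to 0.190 to 1.47, with Hbb-bs and Hba-a2 at 0. Markers over 1 CPM were 4 of 8 for T cells, 3 of 6 for myeloid cells and 1 of 5 for B cells. They were 1 of 6 for thymic epithelium and stroma and 0 of 5 for erythroid cells. Whether the smaller sums came from other cells or from the ILC2, and their part in the results, was not tested.

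**Figure D3:**
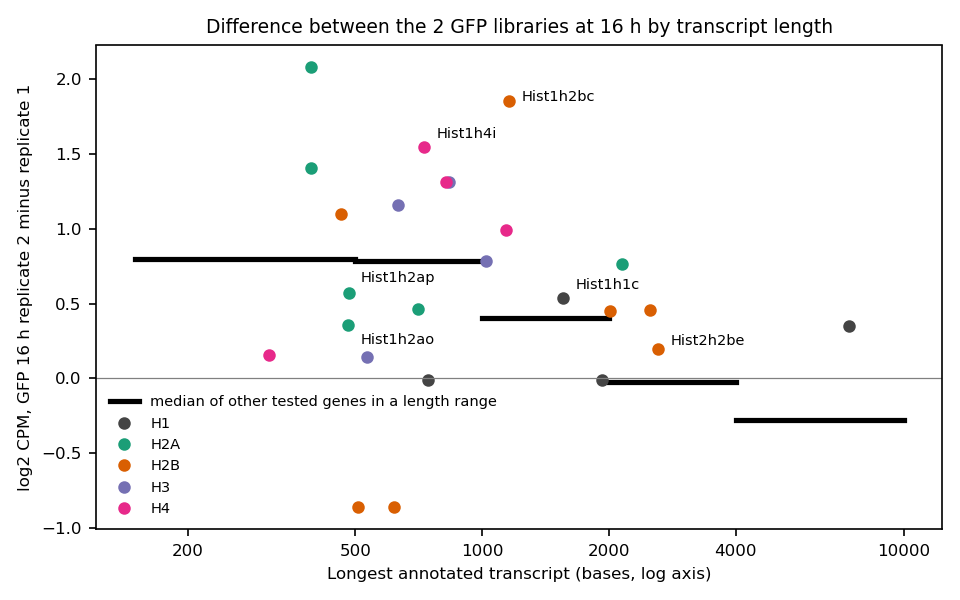
Difference in log2 CPM between replicates 2 and 1 of GFP at 16 h against the longest annotated transcript (log axis) for the 25 tested histone genes, coloured by family; black lines are medians of the other tested genes in 5 length ranges. The medians fall from 0.80 for the shortest to -0.28 for the longest transcripts, and most histone genes lie above 0.

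E47-ER and GFP cells were first compared at 4 h. Histone genes with values high enough to pass the count filter numbered 25, or 29 without replicate 2 of GFP at 16 h. These had passed on their counts, so they do not stand for all 45. With all 8 libraries, edgeR called none of the 25 at an adjusted p under 0.05 (0.286% of all 13644 tested genes were called), and 2 of 25 had an unadjusted p under 0.05 (5.82% of all genes). Without replicate 2 of GFP at 16 h, which adds to this comparison only through the shared estimate of spread and the filter, 1 of 29 was called, Hist1h2bc, which was lower in E47-ER cells (4.33% of 14146 genes called, 1.68% lower).

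Hist1h2bc, an H2B gene with an annotated 3' end of 742 bases and no perfect stem-loop match, had 12.3 and 12.8 CPM with GFP against 8.90 and 7.34 with E47-ER at 4 h. Both E47-ER libraries lay below both GFP libraries. The log2 fold change was -0.63 with all 8 libraries (SE 0.49, edgeR adjusted p = 0.9999) and -0.62 without replicate 2 of GFP at 16 h (SE 0.17, edgeR adjusted p = 0.0310), so the size was alike and the call rested on the smaller spread. Without replicate 1 of GFP at 16 h it was -0.63 (edgeR adjusted p = 0.0214), where 4.29% of all genes were called. Hist1h1c had 68.6 and 108 CPM with GFP against 54.8 and 53.3 with E47-ER. The GFP libraries differed more from each other than the lower of them did from the E47-ER libraries. Its log2 fold change was -0.71 (SE 0.25, edgeR adjusted p = 0.645), or -0.71 when the 16 h library that stood apart was removed (edgeR adjusted p = 0.170), and limma voom with quality weights called it with all 8 libraries at -0.68 (adjusted p = 0.0302), 1 of 25 members beside 2.94% of all genes. Leaving out GFP replicate 2 at 4 h brought it to -0.35.

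Of the H2A genes at 4 h, Hist1h2ao had 46.6 and 45.9 CPM in GFP and 44.1 and 38.6 in E47-ER cells, and Hist1h2ap 17.4 and 16.4 against 21.3 and 17.6. Their log2 fold changes had opposite signs, -0.16 (SE 0.16) and 0.20 (SE 0.21), and neither was called by edgeR. Summed, this pair gave 64.0 and 62.3 CPM with GFP against 65.3 and 56.3 with E47-ER, which overlap. Hist1h2be, an H2B gene sharing positions with Hist1h1e, had 0.948 and 1.59 CPM against 0.512 and 0.576, a log2 fold change of -1.22 (SE 0.44, edgeR adjusted p = 0.691). Hist2h2be, the H2B gene with every window unique, had 5.06 and 4.76 CPM in GFP and 4.99 and 4.75 in E47-ER cells, a log2 fold change of -0.0091 (SE 0.20).

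Over the 25 tested histone genes, the median log2 fold change at 4 h was -0.0091, with 14 below 0, beside -0.0075 for tested genes of up to 1000 bases and -0.0043 for all tested genes. Both E47-ER libraries were below both GFP libraries for 8 of the 25 (22.9% of all tested genes) and above for 3 (22.4%). No test was made of these shares against the background.

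At 16 h most members had lower values with E47-ER than with GFP alone, and most of that difference went with replicate 2 of the GFP group. With all 8 libraries edgeR called none of the 25 (1.59% of all genes were called), although 7 had an unadjusted p under 0.05 (24.0% of all genes). The median log2 fold change was -0.52, with 22 of 25 below 0. Tested genes of up to 1000 bases had a median of -0.56 with 75.7% below 0, while over all tested genes the median was -0.0057 with 50.4% below 0. Without replicate 2 the median of 29 histone genes was -0.18, with 22 below 0, against -0.10 and 57.9% for short genes, and 1 was called, Hist1h2bc (8.92% of genes called, 4.53% lower). With replicate 1 of that group removed instead, edgeR called 13 of 32 histone genes, all lower, and 48.6% of all genes, so the number called at this time rests on which GFP library is kept. A fit in which each library's scaling followed transcript length gave a median of -0.21 and no call.

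**Figure D4:**
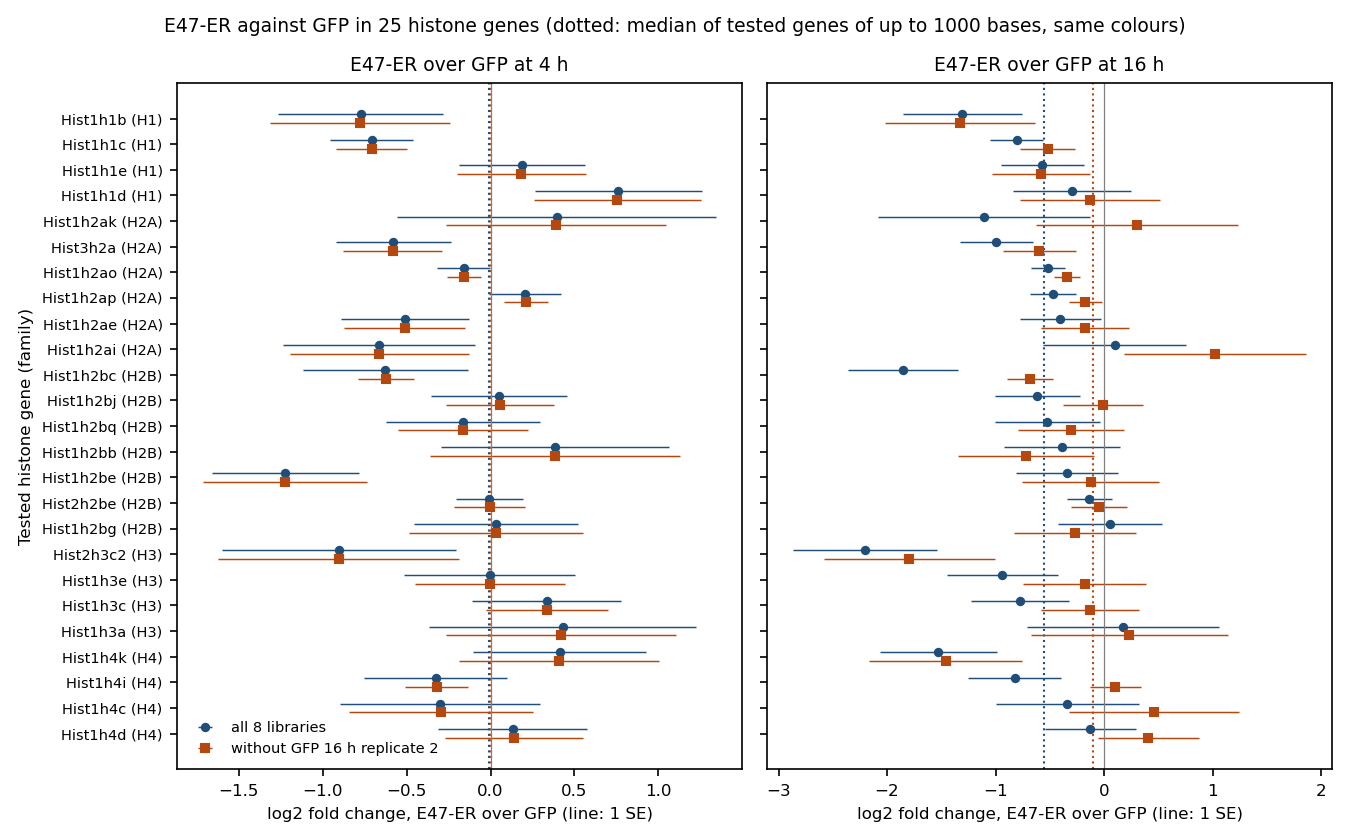
Log2 fold change of E47-ER over GFP with its SE for the 25 histone genes tested with all 8 libraries (circles) and without replicate 2 of GFP at 16 h (squares), at 4 h and at 16 h; dotted lines are the medians of tested genes of up to 1000 bases. At 4 h the 2 sets of points nearly coincide, and at 16 h the circles lie mostly below 0, around a short-gene median of -0.56, while the squares lie nearer to 0.

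For Hist1h2bc this was plain. Its CPM was 9.54 and 34.8 in the 2 GFP libraries at 16 h and 5.54 and 6.35 in E47-ER cells. Replicate 2 was 3.64 times replicate 1, and both GFP libraries stood above both E47-ER libraries. The log2 fold change was -1.85 (SE 0.51, edgeR adjusted p = 0.120) with all 8 libraries and -0.69 (SE 0.21, edgeR adjusted p = 0.0468) without replicate 2. DESeq2 called it with all 8 libraries at -1.89 (adjusted p = 0.00289), where it called 2 of 25 members and 7.1% of all genes. Over both times the 4 E47-ER libraries, at 5.54 to 8.90 CPM, were all below the 4 GFP libraries, at 9.54 to 34.8.

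Hist1h1c had 87.7 and 127 CPM in GFP and 57.4 and 65.3 in E47-ER cells after 16 h. The groups did not overlap, as at 4 h. Its log2 fold change was -0.81 (SE 0.25, edgeR adjusted p = 0.136), and -0.52 (SE 0.25, edgeR adjusted p = 0.314) without replicate 2, and DESeq2 called it with all 8 libraries (adjusted p = 0.0393). Means ± SD of 2 libraries were 88.3 ± 27.9 CPM in GFP and 54.1 ± 1.03 in E47-ER cells at 4 h, and 107 ± 28.1 and 61.4 ± 5.59 at 16 h. The GFP groups carried most of the spread of this gene.

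Hist1h2ao had 67.3 and 86.3 CPM in GFP and 56.4 and 50.5 in E47-ER cells, and Hist1h2ap 24.7 and 36.8 against 23.7 and 20.4. Here too the groups did not overlap, though Hist1h2ap of GFP replicate 1 lay close to an E47-ER library. For Hist1h2ao the log2 fold change was -0.52 (SE 0.16, edgeR adjusted p = 0.134), and -0.34 (SE 0.12, edgeR adjusted p = 0.0754) without replicate 2. For Hist1h2ap it was -0.47 (SE 0.21), and -0.17 (SE 0.15) without replicate 2. Under the scaling by transcript length both turned positive, 0.051 and 0.13. Their sum was 92.0 and 123 CPM with GFP against 80.1 and 70.8 with E47-ER.

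**Figure D5:**
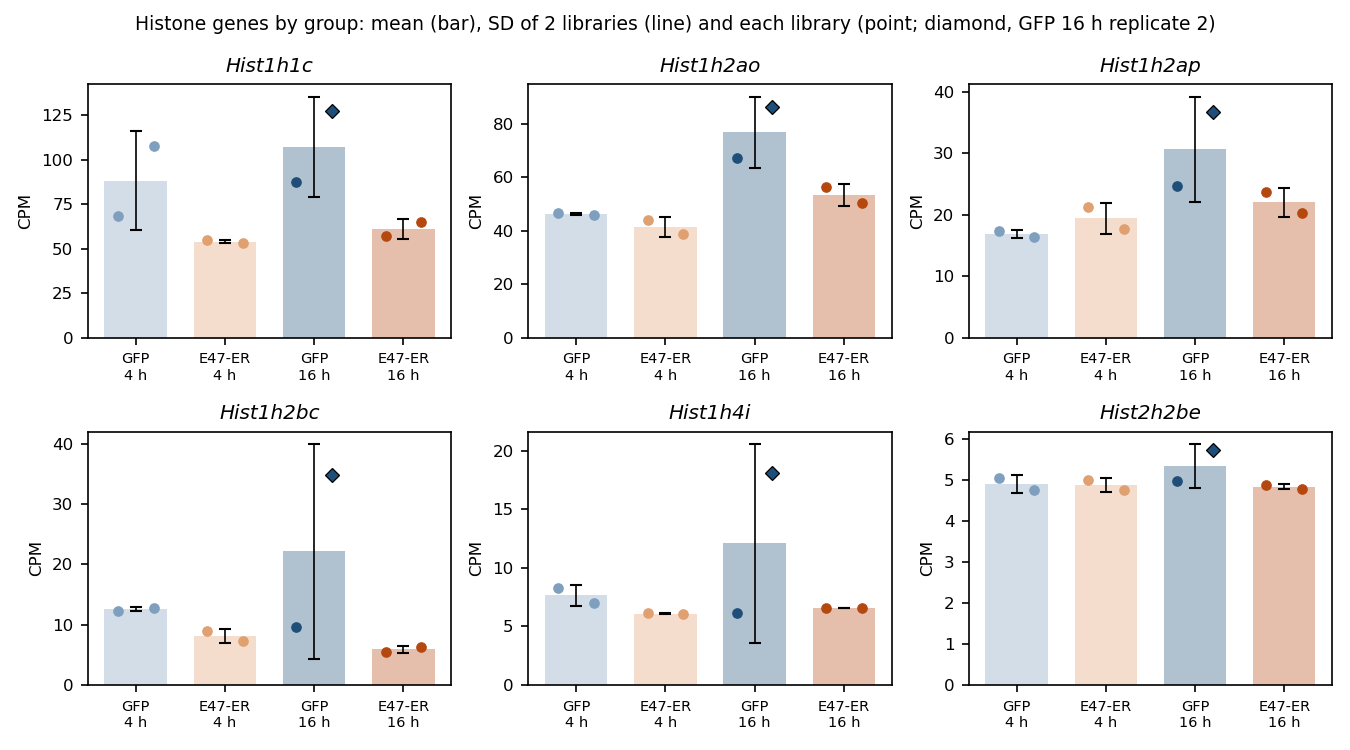
CPM of Hist1h1c, Hist1h2ao, Hist1h2ap, Hist1h2bc, Hist1h4i and Hist2h2be in the 4 groups; bars are means from 0, lines the SD of 2 libraries and points the libraries, with replicate 2 of GFP at 16 h as a diamond. In Hist1h2bc and Hist1h4i the diamond, at 34.8 and 18.1 CPM, stands far above the other 7 points, whereas Hist2h2be stays between 4.75 and 5.73.

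Hist1h4i resembled Hist1h2bc in the standing of replicate 2 but not in the remainder. It had 6.11 and 18.1 CPM with GFP against 6.61 and 6.58 with E47-ER at 16 h. The groups overlapped, since GFP replicate 1 was the lowest of the 4. Its log2 fold change of -0.82 (SE 0.43) became 0.10 (SE 0.23) without replicate 2, and edgeR called it in neither fit. Hist1h2bj, with 2.42 and 5.33 CPM against 2.40 and 2.42, went from -0.61 to -0.0097, and the H3 gene Hist1h3c, with 1.48 and 3.46 against 1.14 and 1.56, from -0.78 to -0.13.

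Low genes varied in how much of the difference at 16 h was left without replicate 2. Hist2h3c2, an H3 gene, had 0.873 and 1.60 CPM in GFP and 0.200 and 0.289 in E47-ER cells, with a log2 fold change of -2.21 (SE 0.66, edgeR adjusted p = 0.134), and -1.80 (SE 0.79, edgeR adjusted p = 0.180) without replicate 2. Hist1h4k had 0.940 and 1.07 against 0.200 and 0.462, at -1.53 and -1.46, and Hist1h1b 0.940 and 0.932 against 0.467 and 0.289, at -1.31 and -1.32. In these 3 genes the GFP libraries differed less from each other than in Hist1h2bc. None was called by edgeR with all 8 libraries or without replicate 2, while Hist2h3c2 was called without replicate 1 of GFP at 16 h, at -2.63 (edgeR adjusted p = 0.00952). Hist1h2ak had 0.403 and 2.13 against 0.935 and 0.115, at -1.11, and 0.31 without replicate 2. A count of 3 equals 0.158 to 0.400 CPM in these libraries, so such values rest on a few counts. Hist2h2be again differed little, at 4.97 and 5.73 against 4.88 and 4.79 CPM, with -0.14 (SE 0.21). Hist3h2a, which shares positions with Trim17, had 3.56 and 6.13 against 2.60 and 2.14 CPM, at -0.99 (SE 0.33), and -0.60 (SE 0.34) without replicate 2.

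Both E47-ER libraries were below both GFP libraries at 16 h for 12 of the 25 genes (26.6% of all tested genes) and above for 1, Hist1h3a (27.8%). When only GFP replicate 1 was set against the E47-ER libraries, the counts were 14 below (39.2%) and 5 above (40.5%). At both times E47-ER was lower without overlap for 5 genes (10.4% of all tested genes): Hist1h1c, Hist1h2ao, Hist1h2bc, Hist1h2be and Hist3h2a. For 3 genes all 4 E47-ER libraries lay below all 4 GFP libraries (7.32%): Hist1h1c, Hist1h2bc and Hist1h2be. In the test of the difference between the E47-ER effects at 16 h and 4 h, edgeR called none of the 25 genes (0.0% of all genes called), and 1 had an unadjusted p under 0.05 (4.92% of all genes). Without replicate 2 it called none of 29 (0.0424%), and without replicate 1 of GFP at 16 h 6 of 32 (35.5%). The median difference, 16 h minus 4 h, was -0.50, beside -0.55 in short genes, and -0.18 without replicate 2, beside -0.10. For Hist1h2bc the difference of the effects was -1.23 (SE 0.71) with replicate 2 and -0.062 (SE 0.27) without it.

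Summed by family, the counts were larger. H1 summed to 70.8 and 112 CPM in GFP and 57.7 and 57.0 in E47-ER cells after 4 h, and to 91.4 and 132 against 59.8 and 68.2 at 16 h, and this sum is almost wholly Hist1h1c. E47-ER libraries were lower at both times. H2A summed to 70.2 in both GFP libraries and 70.7 and 62.5 in E47-ER cells after 4 h, and to 99.5 and 138 against 86.7 and 77.1 at 16 h. H2B summed to 23.7 and 24.4 against 18.9 and 18.4 at 4 h, and to 22.2 and 51.5 against 17.1 and 18.4 at 16 h, of which Hist1h2bc was the largest single part. H3 gave 3.86 and 5.18 against 3.90 and 5.25, then 5.24 and 9.45 against 4.88 and 4.85. H4 gave 13.2 and 11.3 against 11.4 and 11.2, then 11.7 and 27.8 against 11.7 and 11.3. At 4 h the H2A, H3 and H4 sums overlapped between the groups, and in H2B and H4 replicate 2 at 16 h was 2.33 and 2.38 times replicate 1. Without Hist1h1c, Hist1h2ao and Hist1h2ap, the other 42 members summed to 49.1 and 52.6 CPM in GFP and 42.5 and 44.8 in E47-ER cells after 4 h, and to 50.3 and 108 against 42.6 and 43.6 at 16 h.

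Between 4 and 16 h, Hist1h2ao was the H2A gene with the most counts. In GFP cells Hist1h2ao had 46.6 and 45.9 CPM at 4 h and 67.3 and 86.3 at 16 h, a log2 fold change of 0.73 (SE 0.16, edgeR adjusted p = 0.500), and 0.54 (SE 0.12, edgeR adjusted p = 0.397) without replicate 2. In E47-ER cells it had 44.1 and 38.6, then 56.4 and 50.5, at 0.37 (SE 0.16, edgeR adjusted p = 0.981), and 0.35 (SE 0.10, edgeR adjusted p = 0.0545) with the spread estimated without replicate 2. It was thus higher at 16 h without overlap in both cell types, and edgeR called it in neither with all 8 libraries or without replicate 2. Without replicate 1 of GFP at 16 h, edgeR called it in both, at 0.88 in GFP cells (adjusted p = 3.43e-06) and 0.37 in E47-ER cells (adjusted p = 0.0452), where 3.05% of all genes were called. A fit of the 4 E47-ER libraries alone called it at 0.36 (edgeR adjusted p = 0.0215), 1 of 18 members beside 7.32% of all genes. Hist1h2ap gave 0.85 (SE 0.21) in GFP cells, 0.55 (SE 0.15) without replicate 2 and 1.10 without replicate 1. In E47-ER cells it gave 0.18 (SE 0.21), and its values at the 2 times overlapped. Hist1h2bc had 12.3 and 12.8 CPM at 4 h and 9.54 and 34.8 at 16 h in GFP cells, at 0.78 with replicate 2 and -0.40 without it, and 8.90 and 7.34, then 5.54 and 6.35, in E47-ER cells, at -0.45 (SE 0.51).

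Over the 25 tested genes none was called by edgeR between times in GFP cells (0.0% of all genes) or in E47-ER cells (0.0147%), and none of 29 without replicate 2 (0.00707% and 3.08%). In GFP cells 4 had an unadjusted p under 0.05 (9.07% of all genes), and in E47-ER cells 1 (5.09%). The median in GFP cells was 0.61, beside 0.53 for short genes, and 0.23, beside 0.058, without replicate 2. Without replicate 1 in its place the median was 1.10 and 12 of 32 were called, all higher, with 41.8% of all genes called. In E47-ER cells the median was -0.012, beside -0.028 for short genes. Both 16 h libraries were above both 4 h libraries for 9 of 25 genes in E47-ER cells (25.9% of all genes) and below for 2 (24.5%), Hist1h2bc and Hist1h4k. In GFP cells they were above for 10 (18.7%) and below for 0 (18.0%).

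The spread between replicates was larger over the tested members than over all tested genes. The median absolute difference between replicates in log2 CPM was 0.37 over tested histone genes and 0.15 over all tested genes in GFP cells at 4 h, 0.30 against 0.13 in E47-ER cells at 4 h, 0.76 against 0.46 in GFP cells at 16 h and 0.27 against 0.13 in E47-ER cells at 16 h. The tested members had low counts in most cases, and the part of counting error in this was not tested.

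Genes that act on histone mRNA and on new chromatin were read beside the members. With all 8 libraries edgeR called 0 of 23 tested genes of histone mRNA processing and decay, 0 of 10 genes of histone gene transcription, 0 of 10 replication-independent variants, 0 of 22 histone chaperones and assembly factors, 0 of 28 S phase genes and 0 of 20 G2/M genes in each of the 5 comparisons. Over all 13644 tested genes, 0.286% were called between E47-ER and GFP at 4 h and 1.59% at 16 h. For the difference of these effects and for time in GFP cells 0.0% were called, and 0.0147% for time in E47-ER cells. At such shares, lists of this size would hold few calls or none. Slbp had 106 and 107 CPM in GFP and 105 and 106 in E47-ER cells after 4 h, and 116 and 160 against 132 and 109 at 16 h. These values overlap at both times, and the highest is again replicate 2 of GFP at 16 h. Npat, the coactivator of histone gene transcription, had 28.3 and 29.7 against 32.3 and 29.4 CPM at 4 h, and 24.5 and 17.8 against 29.98 and 32.2 at 16 h, a log2 fold change of 0.54 (SE 0.17, edgeR adjusted p = 0.144), and 0.34 (SE 0.14, edgeR adjusted p = 0.137) without replicate 2. Casp8ap2, whose protein FLASH takes part in 3' end processing, had 43.9 and 44.4 against 53.1 and 46.2 CPM at 4 h and 46.96 and 33.95 against 51.3 and 47.1 at 16 h, at 0.27 (SE 0.17) at 16 h. Among the variants, H3f3b had 551 and 709 against 498 and 503 CPM at 4 h, at -0.33 (SE 0.16), and -0.33 in the fit that left out replicate 2 of GFP at 16 h (SE 0.09, edgeR adjusted p = 0.0504).

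Leaving out replicate 2 of GFP at 16 h, edgeR called 3 of the 22 chaperones lower in E47-ER cells at 16 h, where 4.53% of all genes were called lower. Npm1, the nucleolar chaperone nucleophosmin, had 925 CPM in the GFP library kept, 1367 in the one left out and 671 and 562 in E47-ER cells, a log2 fold change of -0.59 (SE 0.10, edgeR adjusted p = 0.000513). Nap1l1, an H2A and H2B chaperone, had 193, 281, 150 and 133, at -0.46 (SE 0.10, edgeR adjusted p = 0.00412). Ipo4, an importin for H3 and H4, had 73.8, 39.8, 49.9 and 50.8, at -0.56 (SE 0.11, edgeR adjusted p = 0.00177), and in this gene the library left out was the lowest of the 4. Between times in E47-ER cells, 1 chaperone, 2 S phase genes and 4 G2/M genes were called higher at 16 h in the same fit (1.74% of all genes). These were Chaf1b at 0.49 (SE 0.12), a subunit of the assembly factor CAF-1, Rrm2 at 0.36 (SE 0.08), the DNA ligase gene Lig1 at 0.31 (SE 0.08), and Ube2c, Cenpf, Bub1 and Ccnb2 at 0.33 to 0.41. The medians between times were above 0 in GFP cells as well, where 1 library was left at 16 h. They were 0.17 in E47-ER and 0.19 in GFP cells for S phase genes, 0.19 and 0.18 for G2/M genes, and 0.058 and 0.10 for chaperones. No gene of histone mRNA processing or histone gene transcription was called in any comparison of that fit.

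Over the 8 libraries, the genes outside the list with log2 CPM most like the median of the tested histone genes were Amdhd2 (Pearson r = 0.985), Aldh4a1 (0.972), Pard6a (0.968), 3830406C13Rik (0.966) and Pcyt2 (0.965). These are descriptions over 8 libraries that share the high value of replicate 2 of GFP at 16 h.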

How the data were processed

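Bulk RNA sequencing gave 1 deposited table of raw counts, whole numbers per Ensembl gene and library, with no normalization by the authors. The submitters' processing notes name mm10 and DESeq2 without a role for the latter; for aligner, counter, annotation release, strand and RNA selection, nothing is given in the sources used here. All 50686 rows and 8 libraries were used, and 50376 IDs matched GENCODE M21. Counts were fitted in edgeR 4.0.16 (R 4.3.3): filterByExpr with a minimum count of 10, TMM scaling, 1 mean per group over all 8 libraries, robust quasi-likelihood tests, and Benjamini and Hochberg adjustment over all tested genes; calls needed an adjusted p under 0.05. CPM used TMM-scaled totals. All results were also computed leaving out GFP replicate 2 at 16 h, where the lone library is assumed to vary like the others. Alternatives were DESeq2 1.42.0, limma 3.58.1 voom with quality weights, other scalings and filters, a transcript length offset, a replicate block and leaving out each library. The fit was tested on simulated data with the same dispersion in every gene and library and no effect of transcript length. That test therefore does not cover a library like replicate 2 of GFP at 16 h. The members and the 6 other gene lists were chosen with earlier results of these data known. Members were named if called in either fit, if among the 3 highest per kilobase of their family, or if they had its largest change at 16 h; from other lists up to 4 called genes and Slbp, Npat and Casp8ap2 were named. Others named, such as Hist2h2be as a gene with unique sequence, Hist1h2be and Hist3h2a, were picked with their values in view. Plots used matplotlib 3.10.9.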

Additional observations from a re-analysis of the deposited data

How the results depend on the processing

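With all 8 libraries edgeR called no histone gene in any comparison, and the number called moved with single settings. At 4 h limma voom with quality weights called 1 of 25 (401 of 13644 genes) and no filter on low counts 1 of 45 (165 of 29929), in both cases Hist1h1c. At 16 h DESeq2 called 2 of 25 (969 of 13644 genes) and no filter 2 of 45 (1816 of 29929), in both cases Hist1h2bc and Hist1h1c. Between times, no filter called 1 of 45 in GFP cells, Hist1h2ap (305 of 29929 genes), and the fit of the E47-ER libraries alone called 1 of 18, Hist1h2ao (957 of 13075). RLE scaling, library totals only, a minimum count of 30, non-robust dispersion and the transcript length offset called 0 in every comparison. Leaving out each library in turn gave 0 to 1 called at 4 h, 0 to 13 at 16 h, 0 to 6 for the difference between times, 0 to 12 for time in GFP cells and 0 to 1 for time in E47-ER cells; the highest number came without replicate 1 of GFP at 16 h, equalled at 4 h without replicate 2 of that group. The medians then ran from -0.05 to 0.05 at 4 h, -0.90 to -0.18 at 16 h, -0.997 to -0.18 for the difference (lowest without replicate 2 of GFP at 4 h), 0.23 to 1.10 for time in GFP cells and -0.13 to 0.10 for time in E47-ER cells. Scaling by library totals moved the median of all genes at 16 h to 0.12 and that of histone genes to -0.40, and the H2A ratio of E47-ER to GFP at 4 h from 0.948 to 0.949. At 16 h this ratio moved more, from 0.691 to 0.766 for H2A, 0.482 to 0.546 for H2B and 0.612 to 0.682 for all members. The ratio of replicate 2 to replicate 1 of GFP at 16 h fell from 2.33 to 1.93 in H2B and from 2.38 to 1.98 in H4. Directions turned at 16 h under the length offset for Hist1h2ao (0.051) and Hist1h2ap (0.13). For time in GFP cells, leaving out single libraries gave -0.40 to 1.44 for Hist1h2bc, lowest without replicate 2 at 16 h, and -0.017 to 0.63 for Hist1h1c, below 0 without replicate 1 at 4 h (-0.017) or replicate 2 at 16 h (-0.016). The cause of these changes was not tested. The replicate block called 0 histone genes in every comparison, with a median of -0.01 at 4 h and -0.58 at 16 h; over all genes it called 28 at 4 h and 195 at 16 h, against 39 and 217. Same-numbered libraries deviated together with correlations of -0.09 to 0.20, so the numbers were not taken as pairs. Of the 45 genes 29 had under 100 counts, which limits the precision of their values.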
